A study of Arabidopsis thaliana with 6 samples.

Results

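The Casparian strip and endodermis genes described here are 10 genes of the 27416 in the deposited table, chosen by locus identifier. Described by name are 9 of them: CASP1 (AT2G36100), CASP2 (AT3G11550), CASP4 (AT5G06200), CASP5 (AT5G15290), ESB1 (AT2G28670), MYB36 (AT5G57620), PER64 (AT5G42180), SHR (AT4G37650) and SCR (AT3G54220). All 10 averaged at least 1 FPKM and were tested, among 17812 genes that passed that filter. FPKM, the deposited unit, scales fragments by transcript length and by the total mapped, so levels can be compared between genes. RNA came from whole wild-type Arabidopsis thaliana seedlings aged 7 days, in 3 libraries of seedlings that received ddH2O (water) and 3 of seedlings that received the secreted signalling peptide CLE9 at 200 nM. The labels name no transgene or other allele, and neither the duration of treatment nor separate plant cultures for the libraries. The p-values therefore cover the spread among these 6 libraries alone, and that spread may be technical.

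The Casparian strip is a band of lignin in the walls between endodermal cells, the innermost cortical layer of the root, and it seals the path between cells so that solutes must cross a membrane on their way to the vasculature. CASP proteins are small membrane proteins that assemble into a belt at the site of the future strip and hold the enzymes that build it. SHR and SCR, transcription factors of the GRAS family, specify the endodermis earlier: SHR is made in the stele and moves outward, and SCR retains it in the endodermal layer. MYB36 is the transcription factor that switches on the strip genes in differentiating endodermis, ESB1 is a dirigent-domain protein needed for an unbroken strip, and PER64 is a lignin-polymerising peroxidase located there.

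The main sequence feature the rule did not use is the resemblance between CASP2 and CASP4. Among the CASP coding sequences of the 4 named genes (RefSeq, build TAIR10.1, 564 to 621 bases long), CASP2 and CASP4 shared 80.6% of aligned bases, while the other 5 pairs shared between 61.7% and 67.05%. The longest identical run between any pair was 20 bases, ctccgtttagctgccattgt, which starts at base 148 of the CASP2 and base 142 of the CASP4 coding sequence. None of the 4 is thus a near-identical copy of another. The windows around their annotated starts also held a common element. It is printed in capitals within the window from 250 bases before to 25 bases after the start of each gene on the plus strand of TAIR10.1 (chr3:3637928-3638202 for CASP2 and chr5:1876884-1877158 for CASP4).
CASP2: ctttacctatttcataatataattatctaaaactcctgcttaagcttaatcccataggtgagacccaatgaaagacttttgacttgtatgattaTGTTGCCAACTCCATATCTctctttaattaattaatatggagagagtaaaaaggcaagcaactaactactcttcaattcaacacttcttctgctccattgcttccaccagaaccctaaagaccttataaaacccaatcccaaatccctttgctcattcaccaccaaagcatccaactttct
CASP4: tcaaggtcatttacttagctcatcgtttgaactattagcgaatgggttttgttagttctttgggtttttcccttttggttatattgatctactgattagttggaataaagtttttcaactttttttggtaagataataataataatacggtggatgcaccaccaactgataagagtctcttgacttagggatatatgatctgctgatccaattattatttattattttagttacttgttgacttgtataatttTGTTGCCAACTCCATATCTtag
Counted from the annotated start base as 0, the 19 bases begin at -156 in CASP2 and at 3 in CASP4, and in windows of 250 bases before to 50 after the start they occurred in 2 of 31345, those of CASP2 and CASP4. Over the 45 pairs of the 10 genes, the next longest run shared by their windows was 12 bases. In the same windows, TTGAC (the W-box core bound by WRKY factors, either strand) was found in 5 of the 10 genes against 50.1% of all windows, CNGTTA or CNGTTG (a MYB core, either strand) in 5 of 10 against 47.1%, and TTTGTC (a core bound by zinc finger factors that partner SHR and SCR, either strand) in 2 of 10, ESB1 and SCR, against 27.6%. These matches are descriptions of the letters and not binding sites.

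In both groups replicate 2 was unlike its companions. Across tested genes, r between replicates 1 and 3 was 0.991 with water and 0.977 with CLE9, against 0.879 or less for replicate 2 with another library of its group. Touch and wounding genes were higher in replicate 2 of both groups, with summed levels of 3302 FPKM with water and 3255 FPKM with CLE9 over 6 genes, against 724 to 778 FPKM in the other controls and 1593 to 1677 FPKM in the other CLE9 libraries. Depth, estimated from the lowest values, lay between 20.6 and 31.4 M fragments, with CLE9 replicate 2 the lowest. Root and shoot markers were both present: in water replicates 1 and 3 the 7 root epidermis and hair genes summed to at least 110.02 FPKM and 6 green shoot genes to at least 19157 FPKM.

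The data show 2 patterns among the 10 genes. The 8 strip genes (the CASP genes, ESB1, MYB36 and PER64) were lower in replicate 2 of both groups and lowest in CLE9 replicate 2, while SHR and SCR were at similar levels in that library as in the rest. Between CLE9 and water 0 of the 10 passed the test, which called 0.00561% of all genes tested. ESB1 and CASP5 had the largest negative changes. SCR was the only gene of the 10 whose groups did not overlap, beside 16.0% of all genes tested.

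CASP1 was the most highly expressed of the CASP genes. It was at 41.0, 14.8 and 33.0 FPKM in water replicates 1, 2 and 3 and at 33.4, 2.43 and 34.8 FPKM in CLE9 replicates 1, 2 and 3. Both replicate 2 libraries were low, and CLE9 replicates 1 and 3 lay between water replicates 3 and 1. CASP2 was at 18.0, 7.46 and 17.1 FPKM with water and at 15.1, 1.12 and 17.1 FPKM with CLE9, again lowest in replicate 2 of each group. The ratio of CASP1 to CASP2 lay between 1.93 and 2.27 in the 6 libraries, although CASP1 itself varied 16.9-fold and CASP2 16.1-fold. Of the members set against CASP1, PER64 came next in constancy, with a ratio between 2.40 and 3.55, and the ratio of CASP1 to SCR varied 20.3-fold.

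CASP4 and CASP5 were expressed at a lower level. CASP4 was at 3.73, 1.63 and 3.07 FPKM with water and at 4.398, 0.165 and 3.95 FPKM with CLE9, so that both CLE9 libraries other than replicate 2 were above every control. CASP5 was at 6.70, 3.38 and 5.51 FPKM with water and at 4.68, 0.163 and 3.12 FPKM with CLE9, where each CLE9 library was below the control of its number. The lowest values rest on very few fragments: with the estimated depth and exon length, the CASP4 and CASP5 levels in CLE9 replicate 2 stand for about 2.07 and 2.81 fragments, against 55.4 to 166.6 fragments in replicates 1 and 3 of both groups. These CASP genes lie at chromosome 2, 15159591 to 15160750 (CASP1), chromosome 3, 3638195 to 3639197 (CASP2), and chromosome 5, 1877333 to 1878116 (CASP4) and 4967011 to 4968035 (CASP5), in the deposited TAIR10 coordinates.

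**Figure D1:**
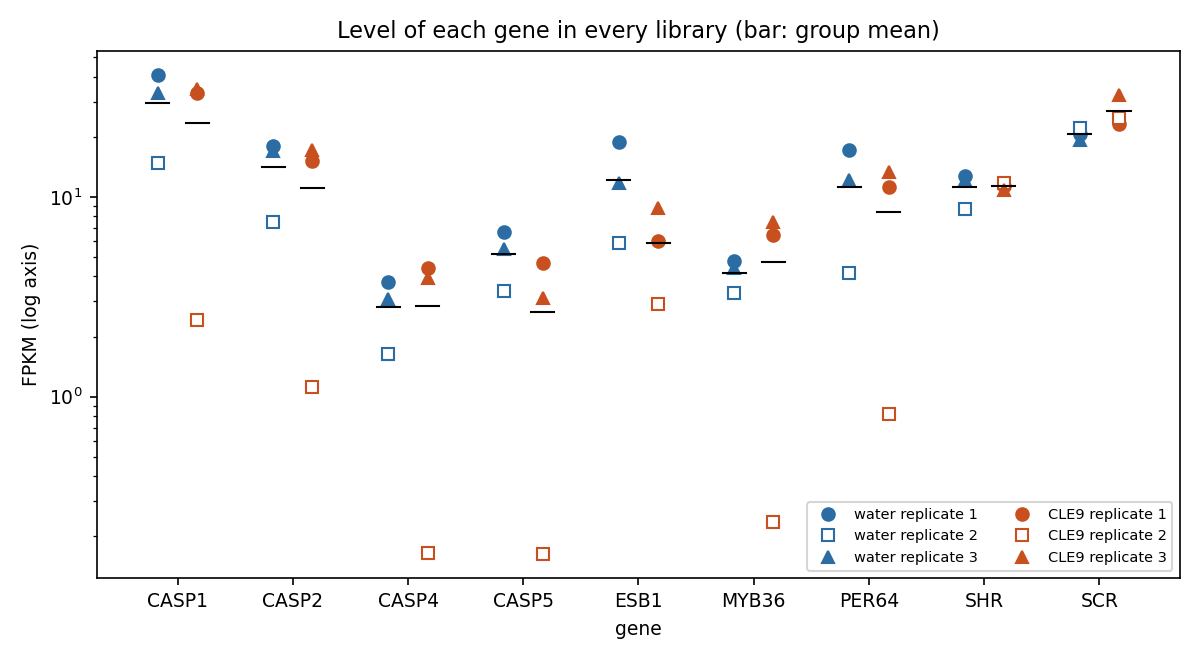
Level of each of the 9 named genes in FPKM on a log axis, by library; blue is water, orange is CLE9, open squares are replicate 2 and bars are group means. The open orange squares of the CASP genes, MYB36 and PER64 lie between 0.163 and 2.43 FPKM, below the other 5 libraries, and those of SHR and SCR lie among them.

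MYB36, at chromosome 5, 23334817 to 23336566, was lowest in replicate 2 of each group, as the CASP genes were. It was at 4.80, 3.30 and 4.42 FPKM with water and at 6.47, 0.235 and 7.49 FPKM with CLE9. As for CASP4, CLE9 replicates 1 and 3 were above all 3 controls, and CLE9 replicate 2 (about 6.14 fragments) was below them. In water replicate 2, where CASP1 was 2.49-fold below the mean of the other controls, MYB36 was 1.40-fold below it, while in CLE9 replicate 2 the corresponding folds were 14.03 for CASP1 and 29.7 for MYB36.

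PER64, the peroxidase gene at chromosome 5, 16852630 to 16854224, was at 17.1, 4.19 and 12.2 FPKM with water and at 11.2, 0.824 and 13.3 FPKM with CLE9. Its groups overlapped, and replicate 2 was again the lowest library of each group. It overlaps a neighbour on the opposite strand by 34 bases, and CASP1 overlaps one by 49 bases, a small part of each gene.

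ESB1 was at 18.8, 5.90 and 11.8 FPKM with water and at 5.99, 2.90 and 8.84 FPKM with CLE9. Each CLE9 library was below the control of its number, and the highest CLE9 library was below both controls other than replicate 2. ESB1 (chromosome 2, 12300259 to 12302358) shares 1778 of its 2100 bases with AT2G28671 on the opposite strand, and no source used here says whether the counting was stranded, so its level alone is uncertain. AT2G28671 was at 2.26, 2.31 and 6.42 FPKM with water and at 7.45, 0.0625 and 6.27 FPKM with CLE9. Added together, the pair of overlapping genes reached 21.02, 8.22 and 18.2 FPKM in controls and 13.4, 2.96 and 15.1 FPKM after CLE9, or 15.8 ± 6.73 and 10.5 ± 6.59 FPKM (SD, n = 3). The groups overlapped through water replicate 2, and the sum was lower with CLE9 in all 3 pairs. The difference of the means is smaller than the unpaired SD of either group, which includes replicate 2, and the sum was not tested. Each FPKM is scaled by the length of its own transcript, so the sum is only a rough guide. It does not settle how fragments in the shared bases were counted.

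The factors that specify the endodermis were the steadiest of the 10 genes. SHR (chromosome 4, 17691786 to 17693760) was at 12.8, 8.70 and 12.2 FPKM with water and at 11.3, 11.8 and 10.8 FPKM with CLE9, a 1.47-fold range over the 6 libraries with overlapping groups. SCR (chromosome 3, 20070158 to 20072780) was at 20.7, 22.1 and 19.2 FPKM with water and at 23.3, 24.96 and 32.3 FPKM with CLE9. Each CLE9 library was above every control for SCR, with CLE9 replicate 3 highest. Of all tested genes, 8.51% had groups that did not overlap with CLE9 higher, 7.47% with CLE9 lower and 16.0% in either direction, so 1 of 10 is near the background.

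By mean level over the 6 libraries, the order was CASP1 (26.6 FPKM), SCR (23.8), CASP2 (12.7), SHR (11.3), PER64 (9.79), ESB1 (9.03), MYB36 (4.45), CASP5 (3.93) and CASP4 (2.82). The ranges of neighbours in this order overlapped over the 6 libraries, except those of SCR (19.2 to 32.3 FPKM) and CASP2 (1.12 to 18.02 FPKM). In CLE9 replicate 2 the order was different, with SCR and SHR at 24.96 and 11.8 FPKM and the 8 strip genes between 0.163 and 2.90 FPKM.

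The comparison of CLE9 with water asks whether the peptide changed these transcripts in seedlings. None of the 10 genes was called by limma (adjusted p of 0.663 or more), against 1 gene, 0.00561%, of all genes tested, and 1586 genes with an unadjusted p under 0.05. With this background the group-only test makes almost no calls for any gene, and a p that misses the threshold does not show that values did not differ. The median change of the 10 genes was -0.46 on the log2(FPKM + 1) scale, beside -0.05 over all genes tested. Its sign depended on how replicate 2 was handled. The median was 0.30 without CLE9 replicate 2 alone, which keeps water replicate 2, and -0.11 without both replicate 2 libraries. CASP5 averaged 5.20 ± 1.68 FPKM with water and 2.66 ± 2.30 FPKM with CLE9 (SD, n = 3). Its log2 change was -1.004 ± 0.62 (SE, limma adjusted p = 0.717). ESB1 averaged 12.2 ± 6.44 and 5.91 ± 2.97 FPKM, for a change of -0.90 ± 0.49 (limma adjusted p = 0.687).

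CASP1, CASP2, CASP4, MYB36 and PER64 had changes between -0.81 and -0.24 with standard errors between 0.63 and 0.98, each smaller than its error. SCR averaged 20.7 ± 1.45 and 26.8 ± 4.78 FPKM, for a change of 0.35 ± 0.18 (limma adjusted p = 0.663), and SHR had a change of 0.02 ± 0.19. With the replicate number as a block, which called 355 genes (1.99%), 0 of the 10 were called. ESB1 came nearest (limma adjusted p = 0.128), then CASP5 (0.172), PER64 (0.319) and SCR (0.344). With replicate 2 as a term, which called 8.53% of genes (6.04% higher and 2.49% lower), 0 of the 10 were called. With array weights, which gave less weight to libraries that fit the model poorly and called 27.4% of genes (14.7% higher and 12.7% lower), 3 of the 10 were called: SCR higher (0.56 ± 0.10, limma adjusted p = 0.00898), CASP5 lower (-0.83 ± 0.19, 0.0177) and ESB1 lower (-0.97 ± 0.24, 0.0247). In that fit water replicate 1 (weight 9.27) and CLE9 replicate 3 (4.27) had most of the weight of their groups.

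Libraries of one replicate number, set against each other, show where the negative means came from. In pair 2 all 8 strip genes were lower with CLE9, with a median log2 difference of -1.65 and values between -2.21 (CASP1) and -0.82 (ESB1) for the 7 named. In pair 1 the median of the 8 was -0.26 with 6 lower, and in pair 3 it was 0.04 with 3 lower. Pairs 1 and 3 rest on the replicate numbers alone. Over all genes tested the medians were -0.03, -0.05 and -0.04 in pairs 1, 2 and 3, and 54.1%, 54.1% and 54.3% were lower with CLE9. The share of all genes lower in all 3 pairs was not counted. CASP5 and ESB1 were lower in all 3 pairs, and ESB1 differed by -1.50, -0.82 and -0.38.

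**Figure D2:**
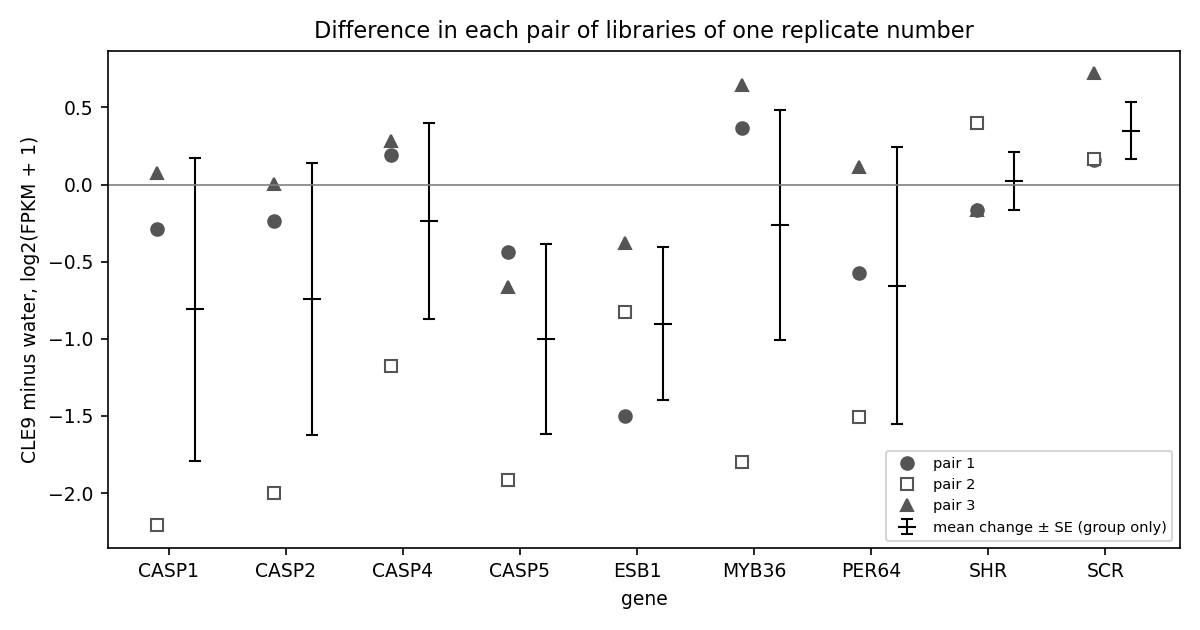
Difference of log2(FPKM + 1), CLE9 minus water, for each named gene in each same-numbered pair of libraries (pair 2 as open squares), with the mean change and its standard error from the group-only fit. Pair 2 is the lowest point for the CASP genes, MYB36 and PER64, and for ESB1 the lowest is pair 1 at -1.50.

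Without both replicate 2 libraries, a comparison of 2 with 2 libraries that called 2024 genes (11.4%), again 0 of the 10 genes were called. The standard errors fell to between 0.12 and 0.27. ESB1 changed by -0.94 ± 0.27 (limma adjusted p = 0.0876) and MYB36 by 0.51 ± 0.14 (0.0797), opposite in sign to its change of -0.26 over all 6 libraries. CASP5 changed by -0.55 ± 0.20 (0.156) and SCR by 0.44 ± 0.18 (0.200), while CASP1 and CASP2 changed by -0.11 and -0.12. As ratios of mean FPKM in replicates 1 and 3, CLE9 over water, these values correspond to 0.485 for ESB1, 0.639 for CASP5, 1.51 for MYB36 and 1.39 for SCR, and to 0.921 for CASP1 and 0.918 for CASP2. CASP4 changed by 0.24 ± 0.15, PER64 by -0.23 ± 0.19 and SHR by -0.16 ± 0.12.

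Within groups, replicate 2 was set against the mean of replicates 1 and 3, as a description with no test. With water the 8 strip genes shifted by between -1.58 and -0.38 log2 units (median -1.17, all tested genes -0.19), and with CLE9 by between -3.35 and -1.09 (median -2.42, all tested genes -0.23). SHR and SCR shifted by -0.48 and 0.14 with water and by 0.08 and -0.13 with CLE9. Only 0.769% of tested genes had a lower shift than CASP1 with CLE9 and 4.36% with water, so its shift was among the largest negative ones there.

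Markers of some other root cell types were also lower in replicate 2. The 7 root epidermis and hair genes were lower in replicate 2 of both groups (medians -1.996 with water and -1.81 with CLE9), beside 65.0% and 64.0% of all tested genes. They summed to 24.3 and 9.10 FPKM there, against 110.02 to 149.9 FPKM in the other controls and 47.9 to 127.3 FPKM in the other CLE9 libraries. PRP3, the most abundant of them by mean, was at 106.1, 17.1 and 65.9 FPKM with water and at 22.3, 2.99 and 86.3 FPKM with CLE9. The 5 stele genes summed to 38.3 and 23.5 FPKM, against 82.5 to 97.1 and 56.6 to 77.3 FPKM. Most of the stele sum is PHO1, a phosphate exporter gene, at 61.0, 16.7 and 65.0 FPKM with water and at 30.5, 6.82 and 48.1 FPKM with CLE9. The median shift of the stele list was -0.12 with water, less negative than that of all tested genes, and -0.94 with CLE9. The 6 root cap and stem cell niche genes summed to 1.83 and 0.225 FPKM against 6.53 to 8.54 FPKM in the other 4 libraries. Only 2 of the 6 averaged 1 FPKM or more and were tested, so these sums rest on low values. WOX5 went the other way with water, with a log2 shift of 0.31, and made up most of the 1.83 FPKM. In CLE9 replicate 2, the shallowest library, 4 of the 6 (SMB, BRN1, BRN2 and PLT2) were listed at 0. RHD6 of the hair list was also at 0 there, beside 6606 of all 27416 genes. The sum of the 2 cortex genes moved less, at 228.8 and 207.8 FPKM against 225.8 to 302.02 FPKM, and most of it is AT1G09750. That gene shifted by -0.18 with water and -0.17 with CLE9. The other, AT1G62500, shifted by -0.38 with water and -0.99 with CLE9, where it was at 56.5, 25.4 and 46.8 FPKM. The 8 strip genes summed to 42.3 and 8.56 FPKM, against 92.7 to 115.4 FPKM in the other controls and 85.96 to 93.8 FPKM in the other CLE9 libraries. The 6 green shoot genes were also lower in sum in CLE9 replicate 2, at 6727 FPKM against 16349 FPKM or more in the other 5 libraries. Most of that sum is RBCS1A, at 6024 FPKM there and 12102 FPKM or more in the other 5. The median shift of the 6 genes was -0.33 with water and -2.88 with CLE9, where all 6 were lower. What part these shifts have in the low strip gene values was not tested, and in RNA from whole seedlings fewer endodermal cells and less RNA per cell cannot be told apart.

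**Figure D3:**
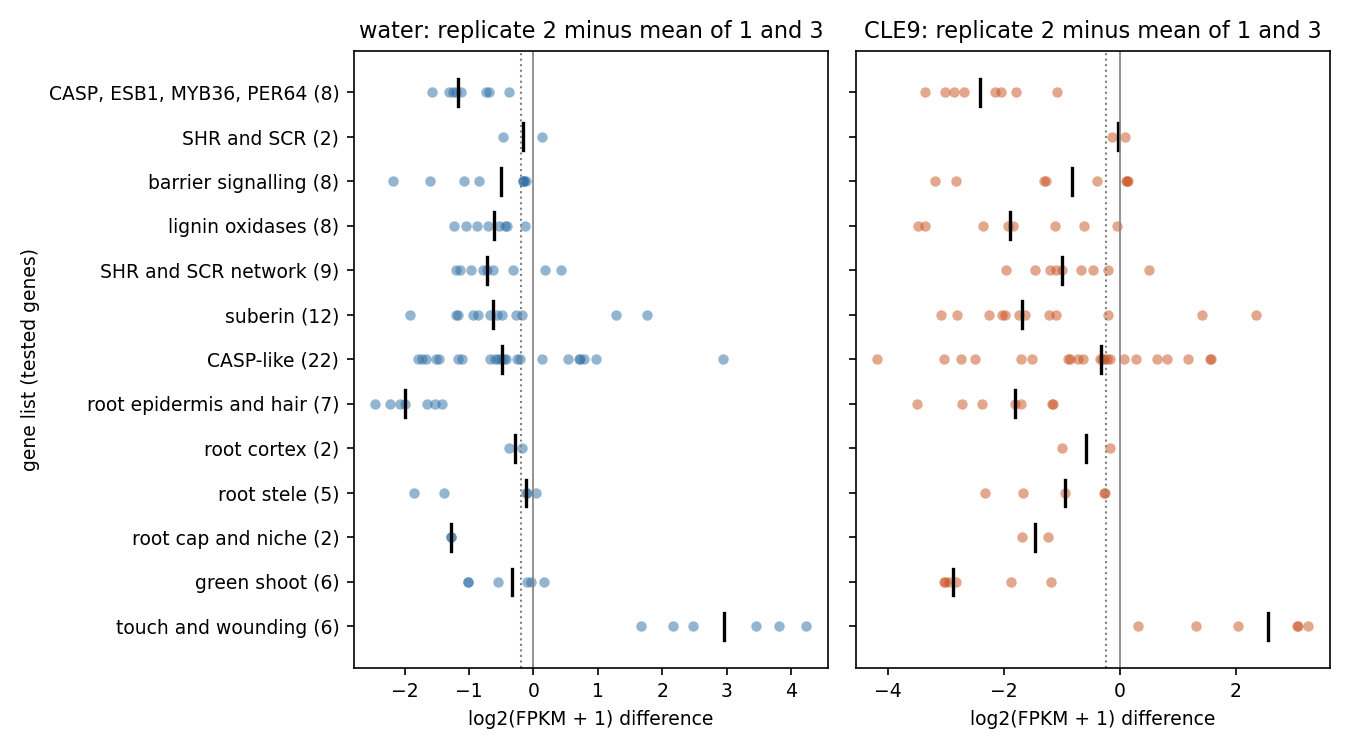
Replicate 2 minus the mean of replicates 1 and 3 on the log2(FPKM + 1) scale, for tested genes of each list (points) with the list median (black bar), in water (left) and CLE9 (right); the dotted line is the median of all tested genes. The 8 strip genes lie below 0 in both panels with medians of -1.17 and -2.42, while SHR and SCR lie between -0.48 and 0.14.

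The signalling genes that act on the strip did not share 1 profile. The list holds 9 genes, of which 8 were tested, and 0 were called with group only or with the block. AT4G34600, which the list carries as a barrier signalling gene and RefSeq annotates as an unknown protein, was at 48.03, 14.1 and 42.6 FPKM with water and at 36.6, 3.06 and 35.2 FPKM with CLE9, lowest in replicate 2 of each group as CASP1 was. AT1G61590, a protein kinase gene, was at 11.2, 1.81 and 12.2 FPKM with water and at 6.48, 0.142 and 7.77 FPKM with CLE9. It was the 1 gene of this list called without both replicate 2 libraries, where it fell by 0.65 on the log2 scale (SE 0.14, limma adjusted p = 0.043, against a background of 2.95% called lower), and it was lower with CLE9 in all 3 pairs.

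EXO70A1 and AT5G50150 varied little across libraries. EXO70A1, a subunit of the exocyst that tethers secretory vesicles, was at 38.9, 33.1 and 35.4 FPKM with water and at 37.1, 40.7 and 38.5 FPKM with CLE9. AT5G50150 was between 9.11 and 12.7 FPKM in the 6 libraries.

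Of the lignin-polymerising genes, 8 of 9 were tested and 0 were called with group only or with the block. UCC2, a blue copper protein of the uclacyanin family, was at 210.2, 149 and 221 FPKM with water and at 445, 453 and 493 FPKM with CLE9. Its groups did not overlap and replicate 2 was not low with CLE9, unlike the strip genes. It was the 1 gene of the list called without both replicate 2 libraries, where it rose by 1.11 ± 0.15 (limma adjusted p = 0.00807, against 8.41% of genes called higher). Over all 6 libraries its change was 1.28 ± 0.25 (limma adjusted p = 0.0666 with the block, 0.255 without it). The peroxidase genes RCI3 and PRX72 were at 43.2, 17.2 and 40.7 and at 22.6, 14.5 and 17.8 FPKM with water. With CLE9 they were at 24.7, 1.77 and 30.9 FPKM and at 29.2, 2.57 and 52.3 FPKM, so both were lowest in CLE9 replicate 2 and they differed in replicates 1 and 3.

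The 9 partners and targets of SHR and SCR were all tested and 0 were called with group only, with the block or without both replicate 2 libraries (median change -0.02 over the 6 libraries). JKD, a zinc finger factor that restricts SHR movement, was at 16.5, 9.28 and 13.4 FPKM with water and at 19.9, 9.30 and 26.2 FPKM with CLE9. SCL3, a GRAS factor of the endodermis, was between 10.7 and 19.7 FPKM, with replicate 2 lowest in each group. SCL23, the closest relative of SCR, was at 12.7, 14.5 and 12.6 FPKM with water and at 11.7, 16.1 and 10.4 FPKM with CLE9, where replicate 2 was the highest library of each group.

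**Figure D4:**
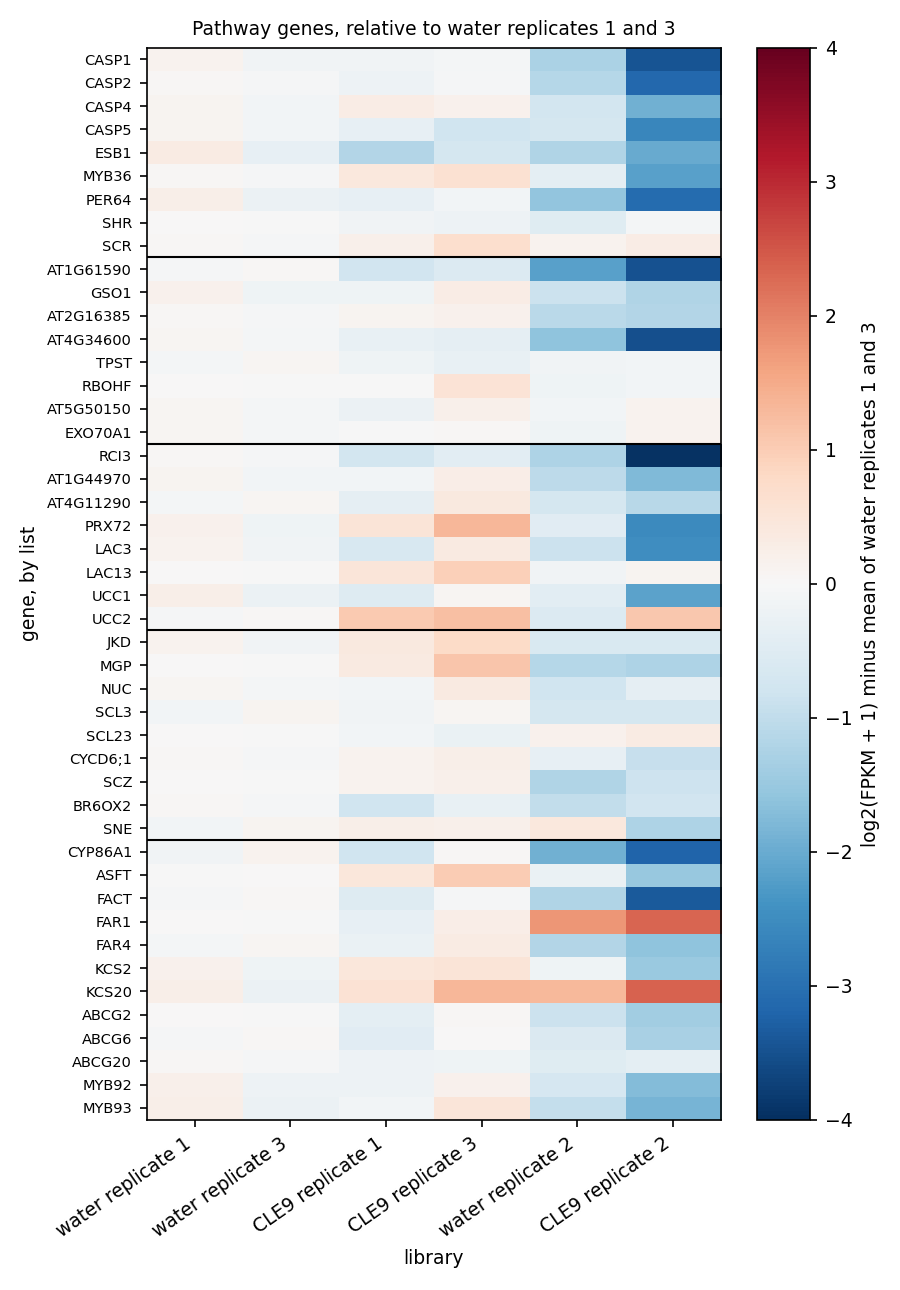
Heat map of log2(FPKM + 1) minus the mean of water replicates 1 and 3, for the 9 named genes and the tested genes of the barrier signalling, lignin-polymerising, SHR and SCR network and suberin lists (top to bottom, divided by lines), with libraries in columns. CLE9 replicate 2 (right) is lowest for each strip gene shown, while UCC2 is higher in all 3 CLE9 libraries than in the controls.

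The CASP-like family, membrane proteins related to the CASP genes and found in many tissues, has 34 other genes in the table, of which 22 were tested. With group only 0 were called, and the median change was -0.32, or -0.019 without CLE9 replicate 2, where 11 of the 22 were negative. With the block 1 rose, CASPL4D1 (1.75% of all genes were called higher), and without both replicate 2 libraries 3 of the 22 rose, CASPL4D1, CASPL4D2 and CASPL4A3, against 8.41% of all genes. CASPL4D1 was at 19.7, 40.8 and 20.96 FPKM with water and at 60.5, 144 and 66.6 FPKM with CLE9, a log2 change of 1.66 ± 0.16 with the block (limma adjusted p = 0.0338, and 0.343 with group only). It was higher in replicate 2 of each group, the opposite of the strip genes.

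CASPL4D2 followed the same direction with more spread, at 22.97, 238 and 39.6 FPKM with water and 179, 392 and 96.5 FPKM with CLE9, so its groups overlapped. CASPL4A3 was at 6.56, 7.36 and 6.71 FPKM with water and at 14.3, 11.4 and 14.96 FPKM with CLE9, with no overlap between the groups. CASPL1D1, the family's most abundant gene here, was between 231 and 413 FPKM with overlapping groups. In CLE9 replicate 2, 15 of the 22 tested genes were below the mean of the other CLE9 libraries, beside 64.0% of all tested genes.

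The profile of the strip genes was shared widely. Against the mean log2(FPKM + 1) of the 8 strip genes over the 6 libraries, Pearson's r was 0.999 for CASP1, 0.997 for CASP2, 0.994 for PER64, 0.946 for MYB36 and 0.851 for ESB1, each of which enters that mean, and 0.201 for SHR and -0.14 for SCR. The 8 other genes with the highest r, all 0.998 or more, were MT1C, AT2G06040, DFB, AT1G33930, AT2G39430, LBD25, AT1G29500 and AT4G13580. AT2G39430 and AT4G13580 encode dirigent-like proteins, the family of ESB1, and were at 11.6, 4.58 and 10.7 and at 7.37, 3.16 and 5.896 FPKM with water and at 9.43, 0.756 and 10.7 and at 5.54, 0.529 and 5.64 FPKM with CLE9. MT1C, a metallothionein gene, was at 87.8, 17.99 and 71.7 FPKM with water and at 60.8, 1.40 and 67.3 FPKM with CLE9. Of 17802 other genes, 1343 (7.54%) had an r over 0.95 across these 6 libraries, which share the departure of replicate 2. Over the 4 libraries without replicate 2, r for the same 8 genes was between 0.885 and 0.981. These 4 were among the 6 libraries used to pick the genes, so this is not a separate test of likeness.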

How the data were processed

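RNA was extracted from seedlings with TRIzol and libraries were made with the NEBNext Ultra kit, per the labels' protocols. The deposited values are FPKM in 6 columns, per the file headers, for 27416 genes. Build TAIR10 and the tools HISAT2 2.0.5, featureCounts 1.5.0-p3, StringTie 1.3.3b, DESeq2 1.16.1 and CASAVA 1.8 appear in the submitters' processing notes with no role stated, and strand use was not stated either.

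Values were analysed as log2(FPKM + 1), which understates changes of low genes. The 17812 genes averaging at least 1 FPKM entered a limma 3.58.1 fit under R 4.3.3 (group only, mean-variance trend, two-sided, Benjamini-Hochberg over all genes tested, called under 0.05). The procedure was also run on simulated data, with no outcome given here. That run therefore does not show how the group-only fit behaves where a replicate departs from its companions, and no conclusion is drawn from it. Depth was estimated from FPKM times length in 5059 single-exon genes, of whose low values 36.8% to 45.1% lay within 0.1 of a whole fragment (chance gives 20%), so depths and fragment numbers are approximate and reads were not recovered. At these depths 1 fragment in a 1 kb transcript is worth 0.0318 to 0.0485 FPKM.

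The replicate numbers were taken to pair the libraries. Deviations from group means correlated at 0.545, 0.743 and 0.583 for numbers 1, 2 and 3. With replicate 2 far from the others in both groups, positive values for numbers 1 and 3 follow from it. Water replicate 1 correlated more with CLE9 replicate 3 (0.664), and water replicate 3 with CLE9 replicate 1 (0.620). The correlations thus bear on replicate 2 alone, and pairs 1 and 3 are matched by number only.

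Sequences, symbols and product names came from RefSeq (TAIR10.1). CASP-like genes were taken by their RefSeq synonyms, since its product names do not use that term; this was settled after the annotation was seen. Named genes beside the 10 were the 3 with the highest mean FPKM of each list, up to 4 called genes with the smallest p, and the 8 genes most alike in profile. Of the 10 genes, 1 is not reported here by name and enters only the counts and medians. The genes and lists were chosen with earlier results of these data known. Alternatives were another pseudocount, no filter, a replicate block, 2 scalings, replicate 2 left out or as a term, array weights and each library left out.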

Additional observations from a re-analysis of the deposited data

How the results depend on the processing

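With limma over all genes tested, 0 of the 10 genes were called under each alternative run except array weights, which called 3 (CASP5 and ESB1 lower, SCR higher) and gave 4884 calls in all, 27.4% of genes, with weights of 9.27, 0.177 and 1.92 for water replicates 1, 2 and 3 and 0.667, 0.111 and 4.27 for CLE9 replicates 1, 2 and 3. Those 3 calls thus rest mostly on water replicate 1 and CLE9 replicate 3. The number of calls over all genes, 1 with group only, was 355 with the replicate block, 2024 without both replicate 2 libraries, 1519 with replicate 2 as a term and 2 with quantile normalization, and 0 to 204 with each library left out, 204 being without water replicate 2. In the pathway and CASP-like lists the calls higher and lower, 0 and 0 with group only, were 1 and 0 with the block, 4 and 1 without both replicate 2 libraries, 3 and 2 with replicate 2 as a term and 12 and 3 with array weights. Tested were 8 barrier signalling, 8 lignin-polymerising, 9 SHR and SCR network, 12 suberin and 22 CASP-like genes. The shares of all genes called higher and lower were 1.75% and 0.247% with the block and 8.41% and 2.95% without both replicate 2 libraries. They were 6.04% and 2.49% with replicate 2 as a term and 14.7% and 12.7% with array weights. The block changed no call of the 10 genes, and of the lists it changed that of CASPL4D1.

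The signs of several changes rested on replicate 2. CASP4 was at 0.24 without both replicate 2 libraries and 0.085 with array weights, MYB36 at 0.51 and 0.49, and SHR at -0.16 and -0.19, and SHR was at -0.0018 with quantile normalization. With each library left out in turn, changes lay between -1.38 and 0.31 for CASP1, -1.29 and 0.26 for CASP2, -0.62 and 0.48 for CASP4, -0.76 and 0.63 for MYB36, -1.19 and 0.30 for PER64 and -0.14 and 0.12 for SHR. The positive values of these genes other than SHR are those without CLE9 replicate 2, and SHR was negative without either replicate 2 library. CASP1, CASP2 and PER64 stayed negative without both replicate 2 libraries (-0.11, -0.12 and -0.23) and with array weights (-0.24, -0.13 and -0.33). CASP5 (-1.46 to -0.32), ESB1 (-1.30 to -0.54) and SCR (0.21 to 0.44) kept their sign in all 6. Levels of CASP4, CASP5 and MYB36 in CLE9 replicate 2 stand for under 10 fragments each, so their folds there are imprecise.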

Other observations

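Suberin is the lipid polyester that coats endodermal cells after the Casparian strip has formed, and its genes were described beside the strip genes. Of 21 listed genes 12 were tested, 0 were called with group only, with the block or without both replicate 2 libraries, and the median change was -0.15. FACT, an acyltransferase of suberin-linked waxes, was at 9.43, 3.66 and 9.94 FPKM with water and at 6.46, 0.0336 and 9.38 FPKM with CLE9, a profile like that of the strip genes. CYP86A1, a fatty acid hydroxylase chosen after its values were seen, was at 7.23, 1.42 and 9.12 FPKM with water and was listed at 0 in CLE9 replicate 2. In that library, the shallowest, 8 of the 21 genes were listed at 0, beside 6606 of all 27416 genes. Of those 8, only CYP86A1 averaged 1 FPKM or more, so the others were near the floor in every library.

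FAR1, a fatty acyl reductase, and KCS20, a fatty acid elongase, went the other way in replicate 2. FAR1 was at 7.45, 27.5 and 7.24 FPKM with water and at 5.62, 40.6 and 9.05 FPKM with CLE9. KCS20 was at 144, 302 and 105.2 FPKM with water and at 183, 638 and 313 FPKM with CLE9. Both were highest in replicate 2 of each group, and they were the 2 of the 12 tested suberin genes above the mean of the other libraries there in both groups.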
